A study of Mus musculus with 20 samples.

Results

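The transcripts described here encode 10 secreted growth factors and matricellular proteins. They are Thbs1, Spp1, Igf1, Osm, Inhba, Tgfb1, Gdf15, Vegfa, Hbegf and Pdgfb, taken from the count table by gene symbol. All 10 were listed among its 33243 genes, and all 10 were among the 16632 genes with enough counts to be tested. They were measured in CNS-associated macrophages of the mouse dura mater (dCAMs), sorted as CD45int CD11b+ CD206int-high cells from Ccr2creERT2/+ R26tdT/tdT mice. In these mice the Ccr2 promoter drives a tamoxifen-dependent Cre recombinase, and a cell in which Cre has acted keeps the red fluorescent protein tdTomato (tdT). A tdT- cell is therefore a cell in which no recombination was recorded, whatever its origin. All 10 mice, controls included, had received the CSF1R inhibitor BLZ945 at 200 mg/kg for 7 days to deplete macrophages. The last of these days was also the first of 3 days of tamoxifen (2 mg per day), the others following 2 and 4 days later. After 8 weeks, 5 mice were given LPS (bacterial lipopolysaccharide, 2.5 mg/kg) and 5 mice were given PBS (CTL), and the dura was taken 12 h later. Each mouse gave a tdT+ and a tdT- library, so there were 20 libraries in 4 groups of 5. Sample titles open with F for 3 CTL and 2 LPS mice and with M for the others. CTL mice carry the numbers 174, 175, 177, 178 and 179, and LPS mice the numbers 54, 56, 59, 60 and 61.

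Growth factors and matricellular proteins are signals that a macrophage releases to its neighbours. Thrombospondin-1 (Thbs1) and osteopontin (Spp1) are matricellular proteins: they sit in the matrix and signal through integrins, CD36, CD47 or CD44 rather than build its structure. IGF-1, VEGF-A, HB-EGF and the PDGF B chain bind receptor tyrosine kinases. Oncostatin M (Osm) is a cytokine of the IL-6 family that signals through Il6st (gp130) with Osmr or Lifr. TGF-β1, activin A (a dimer of the Inhba product) and GDF15 belong to the TGF-β superfamily. TGF-β1 is stored in a latent form that integrins and thrombospondin-1 are known to activate. In tissue macrophages these factors are best known for their roles in trophic support, vessel growth and repair.

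Library totals ranged from 6017650 to 18925908 counts. Depth went with treatment, since LPS libraries had at least 12073566 counts and CTL libraries at most 12208203. Between 6671 and 9365 genes reached 10 counts in the tdT- CTL libraries, against 10024 to 11987 in all other libraries. All 13 macrophage markers of a fixed list were present in each group, with a summed level of 6621 to 17051 CPM (counts relative to the TMM-scaled library total). Of the other cell types, fibroblast markers summed to 4706 CPM in tdT- CTL 179 and 1075 CPM in tdT- CTL 175. They summed to no more than 450 CPM elsewhere. Dendritic cell markers were at 337 to 3337 CPM in tdT- libraries against 22.6 to 90.8 CPM in tdT+ libraries. On average, most of the tdT- sum was Cd209a in CTL (mean 1228 CPM) and Ccr7 in LPS libraries (mean 401 CPM). After LPS, Cd209a averaged 26.8 CPM in tdT- and 17.4 CPM in tdT+ libraries. Neutrophil markers summed to 68.7 to 196 CPM in CTL and 434 to 1091 CPM in LPS libraries, while Ly6g, which defines these cells, did not exceed 1.54 CPM in any library. In sorted bulk samples, fewer cells of a type and less RNA per cell cannot be told apart.

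LPS moved few of the 10 transcripts past the threshold, and they went in both directions. A gene was called with a Benjamini-Hochberg adjusted p under 0.05 over all genes and an absolute log2 fold change over 1. In tdT- dCAMs, Thbs1, Osm and Inhba rose, which is 3 of 10 members against 7.2% of all genes tested. Igf1 fell, 1 of 10 members against 4.27% of all genes. In tdT+ dCAMs, Thbs1 rose (1 of 10, against 3.37% of all genes) and Igf1 fell (1 of 10, against 2.52%). The tdT+ count depended on the fit: it was 2 here, 4 with limma-voom and mouse as a replicate block, 5 with DESeq2, and 6 when only the 10 tdT+ libraries were fitted. Without overlap between the 5 LPS and 5 CTL libraries were 4 of 10 members in tdT- dCAMs and 6 of 10 in tdT+ dCAMs, against 12.6% and 17.8% of all genes. The median log2 fold change of the 10 members was -0.43 in tdT- and 0.75 in tdT+ dCAMs, against 0.02 and 0.01 over all genes tested.

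**Figure D1:**
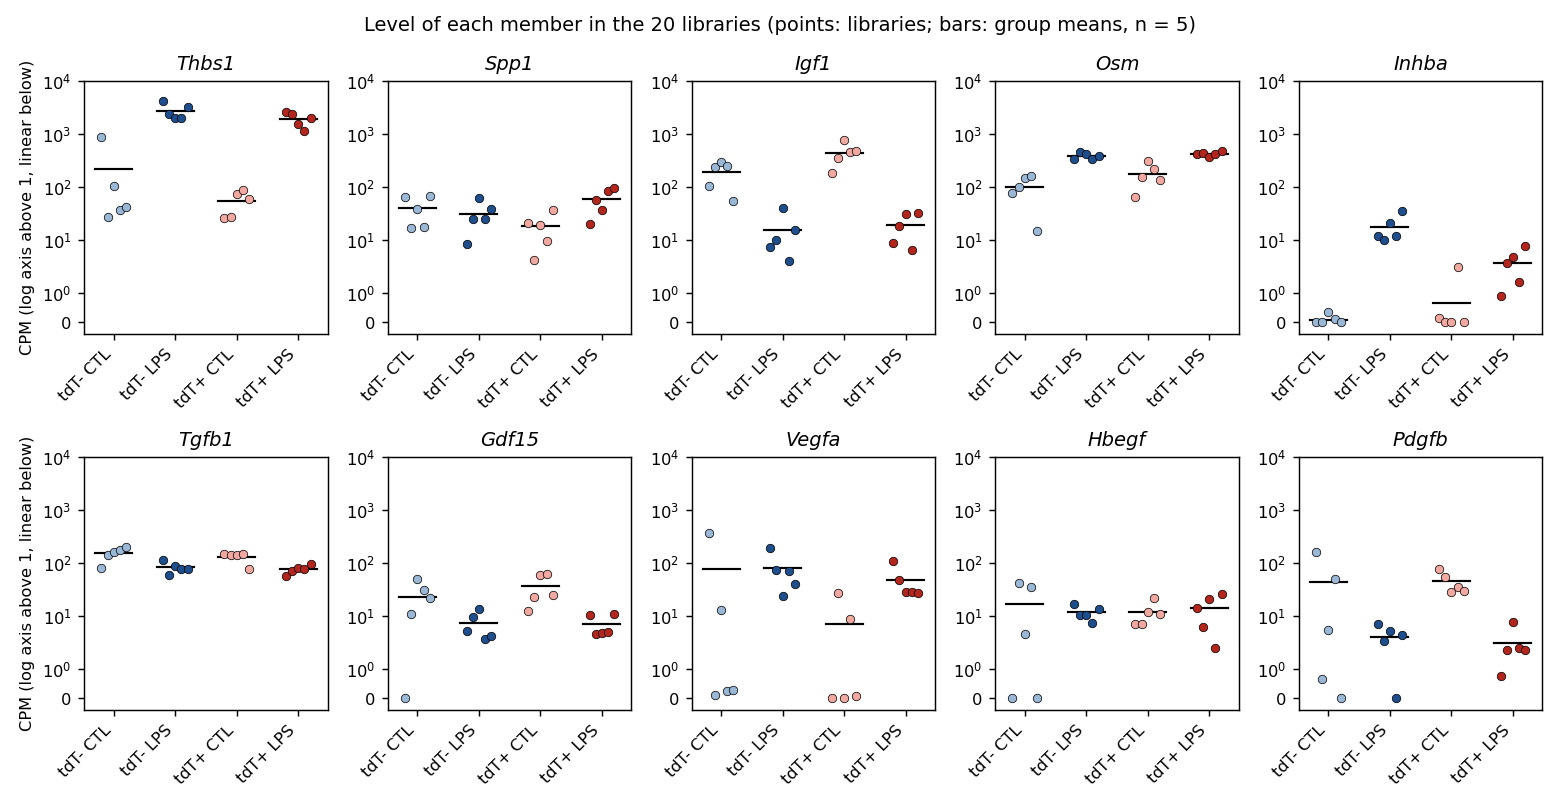
CPM of each member (vertical axis, logarithmic above 1 and linear below) in the 20 libraries, in columns for the 4 groups; points are libraries in order of mouse number and bars are means of 5 libraries. Thbs1 sits between 1115 and 4164 CPM in the LPS libraries and between 26.3 and 889 in the CTL libraries, Igf1 moves the opposite way, and Vegfa, Hbegf, Pdgfb and Inhba have CTL libraries at or near 0.

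**Figure D2:**
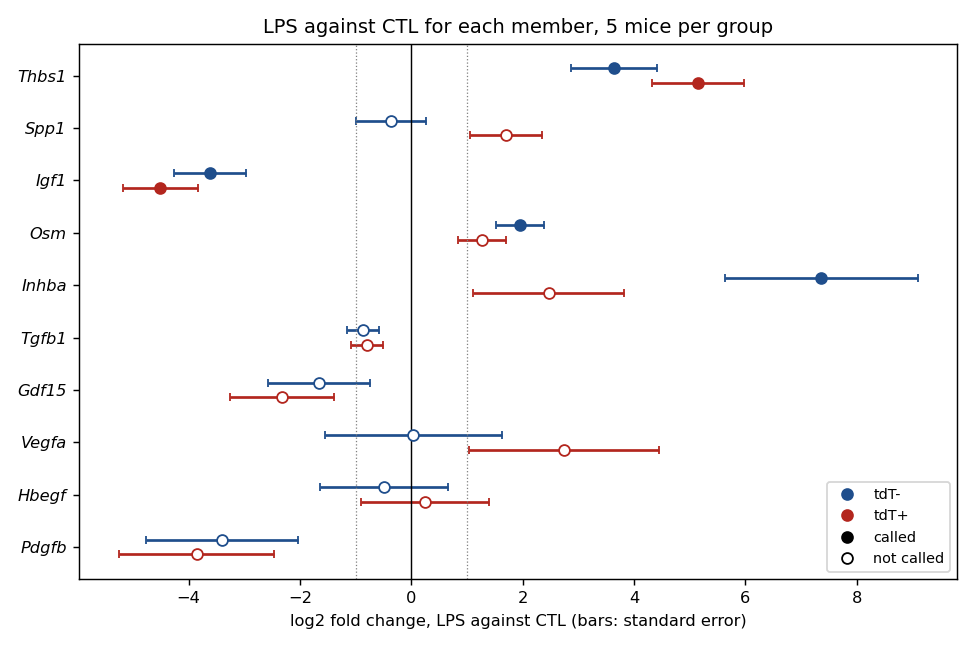
Log2 fold change of LPS against CTL (horizontal axis, bars are standard errors) for the 10 members in tdT- and tdT+ dCAMs; filled symbols are called and dotted lines mark the fold threshold. Thbs1 and Igf1 are called in both populations, and Osm and Inhba in tdT- dCAMs.

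Thbs1 (chr2:118111876-118127133), the gene of thrombospondin-1, rose in both populations after LPS. Coordinates are those of GRCm38 with the GENCODE M21 annotation. In tdT- CTL libraries it measured 889 CPM in mouse 174, 27.2 in 175, 103 in 177, 37.0 in 178 and 41.6 in 179. In tdT- LPS libraries it measured 4164 CPM in mouse 54, 2382 in 56, 1971 in 59, 1972 in 60 and 3257 in 61. Even the lowest of these LPS libraries was above the CTL library of mouse 174, which stood far above the other CTL libraries. The log2 fold change was 3.65 ± 0.77 (SE, adjusted p = 0.00289). Without mouse 174 it was 5.70 (adjusted p = 1.93e-07), because the mean of the other 4 tdT- CTL libraries was 52.3 ± 34.6 CPM (SD) in place of 219.7 ± 375. This tdT- CTL 174 library, which also held the highest tdT- CTL values of Vegfa and Pdgfb, stood apart in other ways: its dendritic cell markers summed to 3337 CPM, against 688 to 1229.7 CPM in the other 4 tdT- CTL libraries, and it had the fewest genes with 10 counts (6671). The part of these differences in its Thbs1, Vegfa and Pdgfb levels was not tested.

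In tdT+ CTL libraries Thbs1 measured 26.3, 27.6, 73.5, 88.7 and 58.3 CPM in mice 174, 175, 177, 178 and 179, and in tdT+ LPS libraries 2631, 2431, 1570.1, 1115 and 1984 CPM in mice 54, 56, 59, 60 and 61. The groups did not overlap, and the log2 fold change was 5.15 ± 0.83 (adjusted p = 0.000243), a ratio of 35.5 between the group means. With limma-voom the call was lost in tdT- dCAMs (adjusted p = 0.227 with quality weights and 0.561 with mouse as a block) and, with the block, in tdT+ dCAMs (adjusted p = 0.756), although the fold changes were no smaller. The voom weights of Thbs1 spread from 0.5 to 9445 between libraries, and with limma-trend, which uses no such weights, the adjusted p was 1.56e-05 and 1.08e-05 in tdT- and tdT+ dCAMs. Platelets are a known store of thrombospondin-1. The platelet and megakaryocyte list of 9 markers summed to 0 to 24.7 CPM in CTL and 4.30 to 53.9 CPM in LPS libraries, and Gp1ba, Gp1bb, Gp5 and Tubb1 were at or under 3 counts in every library.

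Spp1 (chr5:104435118-104441050), which encodes osteopontin, did not pass the threshold in either population. In tdT- dCAMs it ranged from 16.5 to 66.2 CPM (median 37.8) in CTL and from 8.49 to 60.7 CPM (median 25.3) in LPS mice, with a log2 fold change of -0.36 ± 0.63 (adjusted p = 0.748). In tdT+ dCAMs it measured 20.8, 4.14, 19.1, 9.64 and 37.0 CPM in CTL mice 174, 175, 177, 178 and 179, and 20.2, 56.5, 36.3, 85.1 and 96.0 CPM in LPS mice 54, 56, 59, 60 and 61. There, 3 of the 5 LPS libraries lay above every CTL library, and the log2 fold change was 1.70 ± 0.64 (adjusted p = 0.140). The difference between these fold changes was 2.06 ± 0.90, with an unadjusted p of 0.0319 and an adjusted p of 0.307.

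Igf1 (chr10:87858265-87937042), the gene of insulin-like growth factor 1, was the member that fell in both populations. In tdT- CTL libraries it measured 105 CPM in mouse 174, 240.1 in 175, 297 in 177, 251 in 178 and 54.2 in 179. In tdT- LPS libraries the values were 7.30 CPM in mouse 54, 10.002 in 56, 39.9 in 59, 4.02 in 60 and 15.5 in 61. All 5 LPS libraries lay below all 5 CTL libraries, the lowest of which, mouse 179, was the library with the highest fibroblast marker sum. The log2 fold change was -3.62 ± 0.65 (adjusted p = 0.000598), and without mouse 179 it was -3.86 (adjusted p = 0.000398).

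In tdT+ dCAMs Igf1 stood at 179.8, 354, 779, 449 and 477 CPM in CTL mice 174, 175, 177, 178 and 179 and at 8.75, 18.7, 31.0, 6.57 and 32.8 CPM in LPS mice 54, 56, 59, 60 and 61. The means were 448 ± 219 and 19.6 ± 12.2 CPM (SD, n = 5), and the log2 fold change was -4.51 ± 0.67 (adjusted p = 0.000102). Igf1 kept its call in both populations under all 21 alternative settings, with log2 fold changes from -4.36 to -3.36 in tdT- and from -4.78 to -4.22 in tdT+ dCAMs. The annotation places an antisense gene, Igf1os, over Igf1, and whether counting used the strand is not given in the sources used here. The 250 bases before the RefSeq start of Igf1 (GRCm38.p6, chr10:87860861-87861110, plus strand) are printed because Igf1 was the only member called lower. This window lies inside the annotated Igf1 gene. Capitals mark its single match to the AP-1 consensus TGANTCA, 37 bases before the start.
Igf1: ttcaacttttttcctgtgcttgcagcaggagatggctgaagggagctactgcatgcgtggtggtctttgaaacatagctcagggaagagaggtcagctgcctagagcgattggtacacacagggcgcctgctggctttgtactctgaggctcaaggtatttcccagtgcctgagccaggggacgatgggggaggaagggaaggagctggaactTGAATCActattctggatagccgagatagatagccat
Of 32851 RefSeq windows of this length, 6.75% held an AP-1 match on either strand.

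Osm (chr11:4236420-4241026), oncostatin M, was higher after LPS in every library of both populations, although only the tdT- comparison passed the threshold. In tdT- CTL libraries it measured 76.0 CPM in mouse 174, 99.3 in 175, 149 in 177, 163 in 178 and 15.05 in 179. In tdT- LPS libraries it measured 339.8 CPM in mouse 54, 454 in 56, 422 in 59, 336 in 60 and 392 in 61. The lowest LPS library was above the highest CTL library, and the log2 fold change was 1.95 ± 0.44 (adjusted p = 0.00460).

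In tdT+ libraries Osm measured 64.9, 155, 312, 222 and 136 CPM in CTL mice 174, 175, 177, 178 and 179 and 423, 447, 365, 422 and 487 CPM in LPS mice 54, 56, 59, 60 and 61. These groups did not overlap either, but the log2 fold change of 1.27 ± 0.43 had an adjusted p of 0.0923. Osm was called in tdT+ dCAMs under 6 of 21 alternative settings, with adjusted p from 0.000509 to 0.196 over all of them. The spread between mice was narrower after LPS: the coefficient of variation was 59.2% and 52.5% in tdT- and tdT+ CTL libraries and 13.2% and 10.3% in LPS libraries. Neutrophils also express Osm. S100a8 and Mmp8 of the neutrophil list averaged 291 and 98.0 CPM in tdT- LPS and 309 and 103 CPM in tdT+ LPS libraries. Csf3r averaged 205 and 272 CPM in these groups. Retnlg differed between them, at 216 CPM in tdT- LPS and 0.302 CPM in tdT+ LPS libraries, and was at 54.0 CPM in tdT- CTL libraries. Cxcr2 averaged 2.48 and 0.0330 CPM and S100a9 0.917 and 0.236 CPM in the LPS groups. Ly6g, Camp, Ngp and Ltf averaged no more than 2.23 CPM there. The part of neutrophils in the Osm level was not tested.

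Inhba (chr13:16011851-16031621), which encodes the βA subunit of activins and inhibin A, was barely detected in CTL mice. In tdT- CTL libraries it had 0, 0, 3, 1 and 0 counts in mice 174, 175, 177, 178 and 179. In tdT- LPS libraries it measured 11.8 CPM in mouse 54, 10.002 in 56, 21.0 in 59, 11.9 in 60 and 34.8 in 61. All 5 CTL libraries were at or under the floor of 3 counts. Against that floor, taken per library, the mean of the tdT- LPS libraries was at least 47.5-fold higher (adjusted p = 0.00645).

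In tdT+ CTL libraries Inhba had 1, 0, 0, 30 and 0 counts in mice 174, 175, 177, 178 and 179. In tdT+ LPS libraries it reached 0.906, 3.71, 4.73, 1.64 and 7.55 CPM in mice 54, 56, 59, 60 and 61. The tdT+ CTL library of mouse 178, at 3.14 CPM, lay within the LPS range. The log2 fold change was 2.46 ± 1.36 (adjusted p = 0.344), and without mouse 178 it was 6.47 (adjusted p = 0.00938). The tdT- LPS libraries, where Inhba was highest, also held more of the dendritic cell list, with a sum of 337 to 789 CPM against 22.6 to 71.4 CPM in tdT+ LPS libraries. Ccr7, a marker of migratory dendritic cells, was at 222 to 599 CPM in the former and 1.49 to 16.4 CPM in the latter, Xcr1 was at or near 0 in both, and the part of such cells in the Inhba level was not tested. The annotation also places B230303A05Rik and Gm48444 on the opposite strand of Inhba. The 250 bases before its RefSeq start (GRCm38.p6, chr13:16011601-16011850, plus strand) are printed because Inhba went from the floor to detection in all tdT- LPS libraries. Capitals mark a TATAAA match 91 bases before the start.
Inhba: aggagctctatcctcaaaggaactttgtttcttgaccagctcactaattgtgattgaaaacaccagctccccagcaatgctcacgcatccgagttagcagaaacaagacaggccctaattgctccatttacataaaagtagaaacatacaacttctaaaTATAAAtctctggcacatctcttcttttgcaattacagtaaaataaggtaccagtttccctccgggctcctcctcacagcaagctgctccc
A TATAAA match on either strand was present in 12.4% of all windows.

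The promoter table held entries for 6 of the 10 members, Igf1, Spp1, Vegfa, Tgfb1, Inhba and Gdf15, with 9 start sites in all. Each 250-base window was searched on both strands for 6 motifs. The κB consensus was matched in 1 of the 9 windows, at the first Vegfa start, and in 3.9% of all windows. The Sp1 core GGGCGG was matched 5 times before Tgfb1, and also before both Vegfa starts, and 32.7% of all windows held it. The hypoxia response core ACGTG was matched before the second starts of Vegfa and Gdf15 and in 16.6% of all windows. The windows of these second starts lie inside the annotated genes, as do those of the Igf1 start and the second Spp1 start. The bases after the second Vegfa start were not found in any annotated Vegfa transcript, whereas those after the second Gdf15 start were found in a Gdf15 transcript. The palindrome in the Gdf15 window, CACGTG, gave a match on each strand. Spp1 had a TATAAA match before its first start, and the CRE letters TGACGTCA were in none of the 9 windows and in 1.55% of all windows. A match describes letters only.

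Tgfb1 (chr7:25687002-25705077), the best known ligand of the TGF-β superfamily, varied little between mice, with a coefficient of variation of 19.2% to 30.6% in the 4 groups. In tdT- dCAMs it measured 78.0, 140.3, 162, 173 and 201 CPM in CTL mice 174, 175, 177, 178 and 179 and 112, 59.7, 86.0, 77.6 and 76.9 CPM in LPS mice 54, 56, 59, 60 and 61. The library of CTL mouse 174 alone made the groups overlap, since LPS mice 54 and 59 lay above it and below all other CTL libraries, and the log2 fold change was -0.87 ± 0.29 (adjusted p = 0.0502). In tdT+ dCAMs the CTL libraries lay between 77.6 and 148 CPM and the LPS libraries between 55.1 and 95.1 CPM, with a log2 fold change of -0.80 ± 0.29 (adjusted p = 0.115). Without CTL mouse 174 the tdT- comparison was called, at -1.06 (adjusted p = 0.00789). Gdf15 (chr8:70629393-70632456), a stress-induced member of the superfamily, had no count in tdT- CTL 174 and 10.9 to 49.6 CPM in the other 4 tdT- CTL libraries, against 3.61 to 13.5 CPM in tdT- LPS libraries. The log2 fold change was -1.66 ± 0.91 (adjusted p = 0.226). In tdT+ dCAMs Gdf15 measured 12.2, 22.3, 58.3, 59.9 and 24.9 CPM in CTL mice 174, 175, 177, 178 and 179 and 10.2, 4.54, 4.80, 4.85 and 10.9 CPM in LPS mice 54, 56, 59, 60 and 61. There all LPS libraries lay below all CTL libraries, but the log2 fold change of -2.33 ± 0.93 did not pass the threshold (adjusted p = 0.165). Without mouse 174 Gdf15 was called in both populations, at -1.99 (adjusted p = 0.0299) in tdT- and -2.57 (adjusted p = 0.0102) in tdT+ dCAMs.

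Vegfa (chr17:46016993-46032369), the endothelial growth factor of angiogenesis, was detected unevenly in CTL mice and in every LPS library. In tdT- CTL libraries it measured 368 CPM in mouse 174 and 12.9 CPM in 177, and it had 1 or 2 counts in 175, 178 and 179. The tdT- LPS libraries measured 186, 71.4, 23.6, 70.3 and 39.6 CPM in mice 54, 56, 59, 60 and 61. Mouse 174 alone exceeded all LPS libraries, and the log2 fold change was 0.03 ± 1.59 (adjusted p = 1). Without that mouse it was 4.51 ± 1.59 (adjusted p = 0.0640). The tdT+ libraries had 0, 254, 0, 81 and 1 counts in CTL mice 174, 175, 177, 178 and 179, and measured 106, 48.1, 28.0, 28.5 and 27.2 CPM in LPS mice 54, 56, 59, 60 and 61. Every tdT+ LPS library was above every tdT+ CTL library, the highest of which was at 27.0 CPM, and the log2 fold change was 2.74 ± 1.70 (adjusted p = 0.423).

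Pdgfb (chr15:79995874-80014977), the B chain of platelet-derived growth factor, was lower in LPS than in CTL libraries of tdT+ dCAMs without overlap. It measured 75.6, 54.7, 28.1, 34.6 and 28.7 CPM in CTL mice 174, 175, 177, 178 and 179 and 0.755, 2.23, 7.65, 2.42 and 2.21 CPM in LPS mice 54, 56, 59, 60 and 61. Its log2 fold change of -3.85 ± 1.39 had an adjusted p of 0.119, and it was called with only the tdT+ libraries fitted (adjusted p = 0.000467), with voom quality weights (adjusted p = 0.000869) and with DESeq2 (adjusted p = 0.0112). In tdT- CTL libraries Pdgfb ranged from 0 to 158 CPM with a median of 5.28, and in tdT- LPS libraries from 0 to 7.09 CPM with a median of 4.39. That log2 fold change was -3.41 ± 1.36 (adjusted p = 0.103), and without mouse 174, which held the highest value, it was -1.79 (adjusted p = 0.352). It was called with DESeq2, at -3.44 (adjusted p = 0.0199), and without CTL mouse 179, at -3.73 (adjusted p = 0.0436). Hbegf (chr18:36504927-36515805), a ligand of the EGF receptor that is shed from the membrane, ranged from 0 to 42.3 CPM in tdT- CTL and from 7.38 to 16.6 CPM in tdT- LPS libraries. In tdT+ libraries it ranged from 6.82 to 21.8 CPM in CTL and from 2.42 to 25.5 CPM in LPS mice. The log2 fold changes of Hbegf were -0.49 ± 1.15 (adjusted p = 0.825) and 0.24 ± 1.15 (adjusted p = 0.985).

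Levels were compared between members only per kb of exon in the GENCODE M21 annotation of GRCm38. On this scale Osm ranked first in both CTL groups, with a mean level of 44.2 CPM per kb in tdT- and 78.3 in tdT+ libraries. Igf1 ranked 2 in tdT+ CTL (45.2 CPM per kb) and 5 in tdT- CTL (19.1 CPM per kb), where Thbs1 ranked 2 at 36.2 CPM per kb. Without mouse 174 the order in tdT- CTL was Osm, Tgfb1 and Igf1 (46.9, 33.5 and 21.3 CPM per kb), and Thbs1 ranked 6 at 8.62 CPM per kb. In CTL libraries all 9 pairs of neighbours in the order overlapped between libraries, in each population. After LPS, Thbs1 ranked first (453 CPM per kb in tdT- and 321 in tdT+) and Osm second (171 and 189). In tdT- LPS libraries Thbs1 was above Osm, and Osm above Spp1, in all libraries without overlap. In tdT+ LPS libraries the ranges of Thbs1 and Osm overlapped, with Thbs1 above Osm in 4 of 5 mice. Igf1 ranked 9 and 8 in these groups, at 1.55 and 1.98 CPM per kb, and its neighbours overlapped with it. Inhba ranked 10 in every group other than tdT- LPS, where it ranked 7.

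Between the populations, the question is whether dCAMs that had recombined differ from those that had not. No member was called between tdT+ and tdT- dCAMs of CTL mice with edgeR (0 of 10, against 4.28% of all genes in either direction), and 2 members had an unadjusted p under 0.05. In LPS mice no member was called either (0 of 10, against 0.0301% of all genes), and 0 members had an unadjusted p under 0.05. DESeq2 called 1 member in CTL mice (Thbs1) and 0 in LPS mice. The same sign in all 5 mice was seen for 3 members in CTL mice, against 9.46% of all genes, and for 1 member in LPS mice, against 9.9%. Igf1 was higher in the tdT+ library of all 5 CTL mice, by log2 differences of 0.78, 0.56, 1.39, 0.84 and 3.13 in mice 174, 175, 177, 178 and 179. The fitted log2 fold change was 1.24 ± 0.59 (unadjusted p = 0.0477, adjusted p = 0.207), and with limma-voom and mouse as a replicate block it was 1.37 and called (adjusted p = 0.0289). That was the only 1 of 22 alternatives to call it, and the other fits with mouse as a block did not (adjusted p = 0.165 with limma-trend and 0.0807 with edgeR). Spp1 was lower in the tdT+ library of all 5 CTL mice, by -1.95 to -0.84 on the log2 scale (fitted -1.15 ± 0.64, adjusted p = 0.286). Gdf15 was higher in the tdT+ library of all 5 CTL mice, by 0.19 to 6.12, of which the largest came from mouse 174 with its absent tdT- count (fitted 0.66 ± 0.89, adjusted p = 0.739).

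Thbs1 was the second member with an unadjusted p under 0.05 in CTL mice, with a log2 fold change of -2.0 ± 0.72 (unadjusted p = 0.0117, adjusted p = 0.115). That value rested on mouse 174, whose log2 difference was -5.07, while the other 4 lay between -0.49 and 1.26. Without mouse 174 the fold change was 0.25 (adjusted p = 0.793). In LPS mice, Inhba was lower in the tdT+ library of all 5 mice, by log2 differences of -3.47, -1.39, -2.11, -2.73 and -2.18 in mice 54, 56, 59, 60 and 61. The tdT+ and tdT- ranges of Inhba did not overlap, which held for 1.79% of all genes, and the fitted log2 fold change was -2.27 ± 1.34 (unadjusted p = 0.106, adjusted p = 1). Mouse was not a term of this fit. Inhba was called in none of the 22 alternative settings, those with mouse as a block included. Its log2 fold changes there were -2.49 to -2.11, and the lowest adjusted p over these settings was 0.0777. Igf1 and Spp1 were higher in the tdT+ library of 4 of 5 LPS mice, by up to 1.08 and 1.75.

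**Figure D3:**
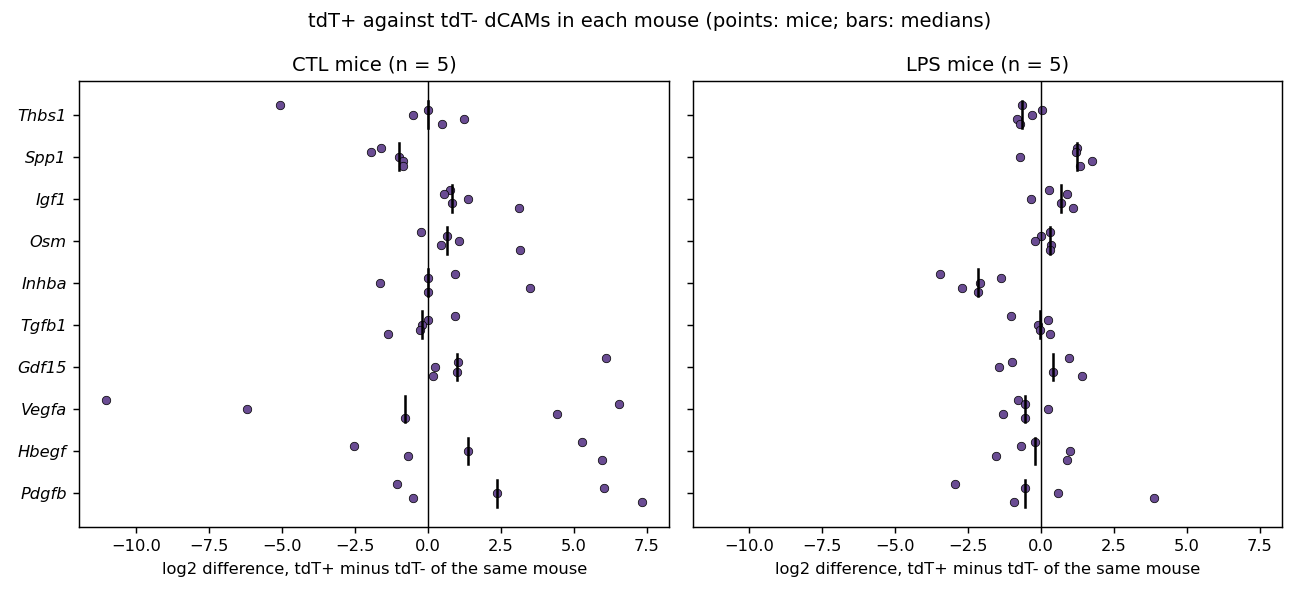
Log2 difference of tdT+ minus tdT- dCAMs of the same mouse (horizontal axis) for the 10 members in CTL mice (left) and LPS mice (right); points are mice and bars are medians of 5 mice. Igf1 and Gdf15 lie above 0 and Spp1 below 0 in all CTL mice, Inhba lies below 0 in all LPS mice, and Vegfa in CTL mice spreads from -11.02 to 6.56.

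The LPS effect did not differ past the threshold between the populations for any member (0 of 10 with edgeR, against 1.26% of all genes), and 2 members had an unadjusted p under 0.05. DESeq2 also called 0. Besides Spp1, this was Inhba, with a difference of -4.90 ± 1.97 (unadjusted p = 0.0218, adjusted p = 0.265). The difference was 1.502 ± 0.99 for Thbs1, -0.89 ± 0.83 for Igf1 and -0.68 ± 0.60 for Osm, with adjusted p of 0.623, 0.838 and 0.810. For Osm and Inhba, a call in tdT- and not in tdT+ dCAMs is thus not a difference between the populations by this test.

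The receptors of these factors divided between higher and lower after LPS. Of 31 receptor genes tested, 4 rose and 5 fell in tdT- dCAMs and 5 rose and 5 fell in tdT+ dCAMs, with a median log2 fold change of 0.51 and 0.49 (0.02 and 0.01 over all genes). The shares were 12.9% and 16.1% in tdT- dCAMs, against 7.2% of all genes higher and 4.27% lower, and 16.1% in each direction in tdT+ dCAMs, against 3.37% and 2.52%. With genes at the floor set at their bound the tdT- median was 0.32. Thrombospondin receptors went both ways: Cd47 rose from 385 ± 94.5 to 1460.5 ± 167 CPM in tdT- dCAMs (log2 fold change 1.92 ± 0.17), while Cd36 fell from 379 ± 153 to 44.7 ± 20.2 CPM (-3.08 ± 0.38). In tdT+ dCAMs the same receptors had log2 fold changes of 2.15 ± 0.17 and -2.83 ± 0.38. The osteopontin receptor Cd44 rose in tdT+ dCAMs from 45.2 ± 13.8 to 369 ± 51.1 CPM (3.03 ± 0.51, adjusted p = 0.000365) and had a log2 fold change of 1.36 ± 0.48 in tdT- dCAMs (adjusted p = 0.0661).

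Both chains of the oncostatin M receptor complex rose in both populations. Il6st, the shared chain of the IL-6 family, went from 78.9 ± 52.3 to 303 ± 60.1 CPM in tdT- and from 62.9 ± 19.8 to 423 ± 75.1 CPM in tdT+ dCAMs (log2 fold change 1.94 ± 0.46 and 2.75 ± 0.48). Osmr was at a mean of 0.135 CPM in tdT- and 0.0153 CPM in tdT+ CTL libraries and at 8.20 and 12.1 CPM after LPS, and was at least 35.6-fold higher than the floor in tdT+ dCAMs. Lifr, the alternative partner, fell by 2.02 and 2.88 on the log2 scale. Of the TGF-β and VEGF receptors, Tgfbr2, the ligand-binding TGF-β receptor, fell from 434 ± 128 to 147 ± 37.7 CPM in tdT- and from 761 ± 94.7 to 177 ± 47.6 CPM in tdT+ dCAMs, and Nrp1, a VEGF co-receptor, from 201 ± 186 to 27.6 ± 8.72 and from 541 ± 38.5 to 41.5 ± 17.6 CPM. The integrin chain Itgb5 fell by 1.42 and 2.08 on the log2 scale. Igf2r, which removes IGF-2, was at or under the floor in all CTL libraries and at least 28.7-fold and 18.0-fold higher after LPS, whereas Igf1r had log2 fold changes of -0.52 ± 1.11 and -1.35 ± 1.12 and was not called.

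**Figure D4:**
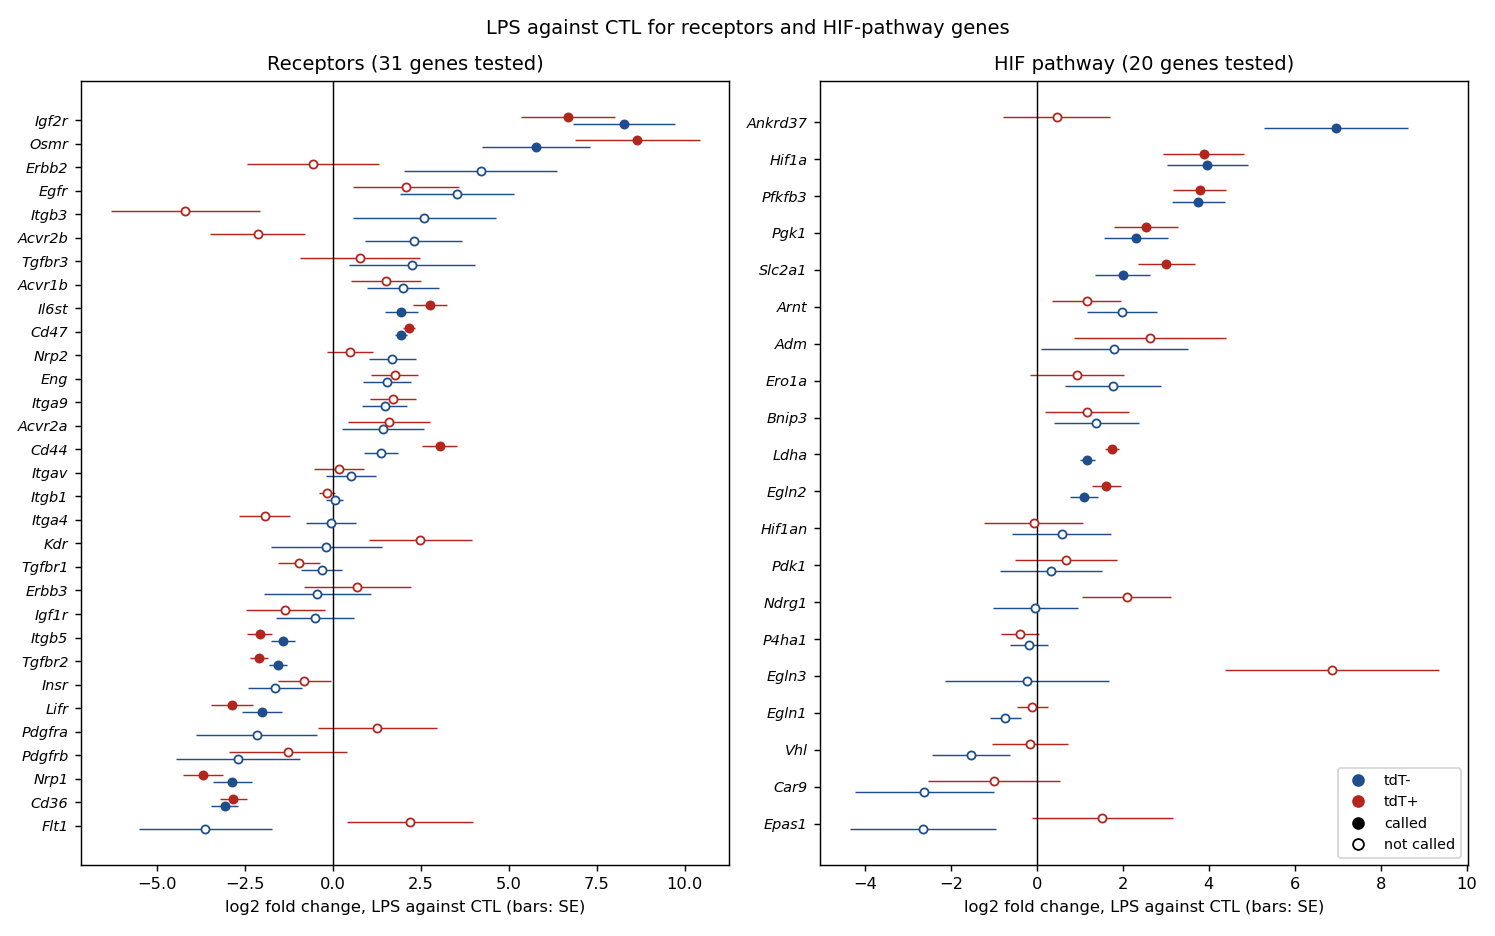
Log2 fold change of LPS against CTL (horizontal axis, bars are standard errors) in tdT- and tdT+ dCAMs for the 31 receptor genes and the 20 genes of the HIF pathway tested; filled symbols are called. Cd47, Il6st, Osmr and Igf2r lie to the right and Cd36, Nrp1, Tgfbr2, Lifr and Itgb5 to the left in both populations, and all called HIF-pathway genes lie to the right.

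Among carriers, proteases and latency proteins, 4 of 25 genes rose and 3 fell in tdT- dCAMs, and 0 rose and 2 fell in tdT+ dCAMs with edgeR (medians -0.91 and 0.48). These were 16% higher and 12% lower in tdT- dCAMs, against 7.2% and 4.27% of all genes, and 8% lower in tdT+ dCAMs, against 2.52%. In tdT+ dCAMs 5 of them were higher with an unadjusted p under 0.05, and DESeq2 called 3 higher. Igfbp4, which binds IGF-1, also fell, from 635 ± 215 to 131 ± 7.01 CPM in tdT- and from 919.7 ± 117 to 141 ± 25.6 CPM in tdT+ dCAMs. Nrros, which holds latent TGF-β1 on myeloid cells, fell from 807 ± 131 to 261 ± 38.3 CPM and from 911 ± 87.0 to 259 ± 52.7 CPM. Lrrc32, which holds latent TGF-β1 on other cells, was at least 21.0-fold higher in tdT- LPS than the floor of the CTL libraries, and Itgb8, whose integrin activates TGF-β1, at least 45.2-fold. Their levels in tdT+ LPS libraries were 3.43 ± 2.98 and 7.22 ± 3.21 CPM, and neither was called there (adjusted p = 0.517 and 0.0574). The proprotein convertase Furin and Rhbdf2, a partner of the sheddase ADAM17, also rose in tdT- dCAMs, by log2 fold changes of 2.34 ± 0.69 and 2.48 ± 0.63. In tdT+ dCAMs their means went from 117 to 333 CPM and from 36.6 to 119 CPM, without a call. No gene of this list was called for the difference of LPS effects.

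Of 21 other matricellular and matrix-associated genes, 3 rose and 2 fell in tdT- dCAMs and 2 rose in tdT+ dCAMs (medians 0.62, or 0.51 with genes at the floor set at their bound, and 0.17). These were 14.3% higher and 9.52% lower in tdT- dCAMs, against 7.2% and 4.27% of all genes, and 9.52% higher in tdT+ dCAMs, against 3.37%. Ecm1 rose from 9.49 ± 11.45 to 537 ± 178 CPM in tdT- and from 36.9 ± 15.7 to 615 ± 196 CPM in tdT+ dCAMs. Ccn3 and Ccn5 had no count in tdT- CTL libraries and were at least 36.2-fold and 7.09-fold higher than the floor after LPS, and Ccn5 also rose in tdT+ dCAMs, at least 11.03-fold. Sparc, a collagen-binding matricellular protein, fell from 187 ± 159.7 to 32.01 ± 17.4 CPM in tdT- dCAMs. Comp fell there as well, from 89.6 ± 149.6 to 4.04 ± 3.14 CPM. Fibroblasts are known to express both, and the tdT- CTL group held the library with 4706 CPM of fibroblast markers; without mouse 179, and also without any 1 of the LPS mice, 1 matricellular gene was called lower in tdT- dCAMs in place of 2.

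Further ligands of the same families were mostly not called. Of 23 tested, 3 rose and 1 fell in tdT- dCAMs and 2 rose in tdT+ dCAMs (medians -0.77 and -0.32). The shares were 13% higher and 4.35% lower in tdT- dCAMs, against 7.2% and 4.27% of all genes, and 8.7% higher in tdT+ dCAMs, against 3.37%. Nrg1, a ligand of ErbB receptors, was at 0.351 ± 0.108 and 0.138 ± 0.130 CPM in tdT- and tdT+ CTL libraries and at 7.5 ± 6.15 and 2.99 ± 2.63 CPM after LPS. Lif, a relative of Osm, was at least 6.25-fold and 2.81-fold higher than the floor. Pgf, a relative of Vegfa, had no count in tdT- CTL libraries and was at least 28.8-fold higher in tdT- LPS libraries, while in tdT+ dCAMs it measured 3.26 ± 4.64 CPM in CTL and 2.21 ± 1.92 CPM in LPS mice. Gdf3 fell in tdT- dCAMs from 65.7 ± 40.2 to 5.32 ± 5.80 CPM.

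Of 17 SMAD transducers and feedback genes, 2 rose and 1 fell in tdT- dCAMs and 1 rose and 1 fell in tdT+ dCAMs (medians 0.11 and 0.03). The shares of 11.8% higher and 5.88% lower in tdT- dCAMs, against 7.2% and 4.27% of all genes, and of 5.88% in each direction in tdT+ dCAMs, against 3.37% and 2.52%, differ from the background by less than 1 gene each. Pmepa1, a TGF-β-induced inhibitor of the pathway, fell in both, by 1.30 and 1.74 on the log2 scale. Smurf2 rose in tdT- dCAMs (log2 fold change 3.68 ± 0.67) and Id3 in tdT+ dCAMs (1.98 ± 0.50).

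Of the 20 HIF-pathway and hypoxia-response genes, which include regulators and targets that accompany Vegfa in hypoxia, 7 rose in tdT- and 6 in tdT+ dCAMs, and 0 fell with edgeR or DESeq2 or were lower with an unadjusted p under 0.05. These were 35% and 30% of the list, against 7.2% and 3.37% of all genes. The medians were 1.14 and 1.34. Hif1a rose from 96.3 ± 89.0 to 1502 ± 193 CPM in tdT- and from 125 ± 75.7 to 1839 ± 285 CPM in tdT+ dCAMs. Pfkfb3 and Ldha, which promote glycolysis, rose by log2 fold changes of 3.76 ± 0.61 and 1.18 ± 0.17 in tdT- and 3.78 ± 0.61 and 1.74 ± 0.17 in tdT+ dCAMs. When the tdT- comparison used only its own 10 libraries, 3 of the HIF-pathway genes were called, and when any 1 of the LPS mice was left out, 4 were. In the integrated stress response, which is known to induce Gdf15, 2 of 14 genes rose and 2 fell in tdT- dCAMs and 3 rose and 2 fell in tdT+ dCAMs (medians 1.04 and 1.37). These were 14.3% in each direction in tdT- dCAMs, against 7.2% and 4.27% of all genes, and 21.4% higher and 14.3% lower in tdT+ dCAMs, against 3.37% and 2.52%. Atf3 fell from 1437 ± 243 to 59.9 ± 10.03 CPM in tdT- and from 1524 ± 596 to 72.9 ± 31.4 CPM in tdT+ dCAMs, Ppp1r15a fell by 1.87 and 1.17 on the log2 scale, and Slc7a11 rose in tdT+ dCAMs from 0.436 ± 0.918 to 382 ± 110.3 CPM.

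Of all 7 lists, 4 genes were called higher in tdT+ than tdT- dCAMs of CTL mice, namely Pgf, Ccn3, Smurf2 and Ankrd37, and 2 were called lower, Ppp1r15a and Slc7a11. These 6 of 151 genes are 3.97%, near the 4.28% of all genes called. With only the CTL libraries fitted, edgeR called 0 genes of the lists (23 had an unadjusted p under 0.05) and 7 of all genes in place of 712, while DESeq2 on all libraries called 9 genes of the lists higher and 8 lower. The same restriction to the libraries compared moved the LPS counts over the lists from 25 higher and 14 lower to 14 and 8 in tdT- dCAMs, and from 19 and 10 to 35 and 19 in tdT+ dCAMs. Between the populations of LPS mice, and for the difference of LPS effects, 0 genes of the lists were called with edgeR (1 in the former, Itga4, with only the LPS libraries fitted), while 6 and 21 had an unadjusted p under 0.05 and DESeq2 called 0 in the former and 1 higher and 5 lower in the latter. The genes whose pattern over the 20 libraries was closest to a member, by the root mean square difference of centred log2 CPM among 5822 genes, were Fcrl2 (0.773) and Atf3 (0.921) for Igf1. They were Slc15a3 (0.513) and Xdh (0.552) for Osm and Nfe2l2 (0.306) and Crlf3 (0.323) for Tgfb1. For Thbs1 they were Ptgs2 (1.22) and Mt2 (1.28), and for Spp1 Mrpl40 (0.873) and Kif5b (0.891). The SD of Thbs1 over the libraries was 2.85 on this scale and that of Spp1 1.17. The other 5 members were too low for this comparison, with a mean log2 CPM under 4.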

How the data were processed

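RNA from sorted tdT+ and tdT- dCAMs was amplified with a SMART-Seq low-input protocol without molecular identifiers. The authors deposited raw counts per gene, made with STAR 2.7.11a and featureCounts 2.0.6 after bcl2fastq 2.20, and their processing notes also name DESeq2 1.46.0. The methods name more than 1 genome build without saying which applies to this table, and the strand setting is not given in the sources used here. Besides Igf1 and Inhba, annotated genes overlap Spp1 (Gm42793, same strand) and Thbs1 (Gm29233, opposite strand). Pdgfb is overlapped by Mir7213 (same strand) and Gm41361 (opposite strand). The part of overlapping genes in the counts was not tested. Groups came from the sample labels.

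Counts were fitted with edgeR 4.0.16 (quasi-likelihood, R 4.3.3), with 1 mean for each of the 4 groups over all 20 libraries, TMM scaling and Benjamini-Hochberg adjustment. Genes with fewer than 10 counts in total were removed, leaving 16632 of 33243. The common biological coefficient of variation was 1.13. The SE is the absolute log2 fold change divided by the square root of F. The fit was tested on simulated data, with the condition that set fold changes were recovered in sign and size with few false calls. An earlier condition on how many genes with the largest set fold change were called was not met. It was replaced after that was seen. A gene that was not called can therefore still differ. The 2 LPS comparisons, the 2 population comparisons and the difference of LPS effects share libraries. CPM and fold changes were computed with Python 3.11.15, pandas 2.3.3 and numpy 2.4.6. Mouse differences and the likeness measure used a prior count of 2, the latter among genes whose log2 CPM averaged 4 or more. A group with 3 counts or fewer in each library was treated as at the floor. Counting error is the only error that this floor covers.

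Both libraries of a mouse come from the same animal. The correlation of their deviations from the group means was -0.0046 to 0.0461 in CTL mice and 0.228 to 0.449 in LPS mice. Alternatives were RLE size factors, 2 other count filters, DESeq2 1.42.0, limma 3.58.1 with voom (quality weights, or mouse as a block), mouse as a fixed block, the F or M of the sample titles as a covariate, only the libraries compared, thinning to the shallowest library, and leaving out each mouse. limma-trend, with and without the block, was added after seeing the data. The members and gene lists were chosen with earlier results of these data known. All members are named, and of each list up to 3 called genes per direction with the smallest p. Genes named beyond that rule, such as Igf1r, Lifr, Itgb5, Osmr and Furin, were chosen after their values were seen. Some genes of the lists are not reported here by name.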

Additional observations from a re-analysis of the deposited data

Results flagged for a closer look

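Of 40 sets of 5 libraries (10 members in 4 groups), 6 held a library far from the other 4 by Dixon's test. Chance flags about 1 in 20 groups of normally distributed values. The CPM values tested need not be so distributed, and some sets lay mostly at or under the floor. Whether 6 of 40 exceeds chance can therefore not be told from that rate. The tdT- CTL library of mouse 174 was the highest of its group for Vegfa (368 CPM, next 12.9) and for Thbs1 (889 CPM, next 103). Inhba was highest in tdT+ CTL 178, at 3.14 CPM with the next library at 0.162. Tgfb1 was lowest in tdT+ CTL 179, at 77.6 CPM with the next library at 140.0. After LPS, Vegfa was highest in tdT+ LPS 54 (106 CPM, next 48.1) and Pdgfb in tdT+ LPS 59 (7.65 CPM, next 2.42). No explanation of these libraries was tested.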

How the results depend on the processing

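Across 22 settings, 1070 values of single members were recomputed. Of these, 978 kept their direction and side of the threshold, 28 were newly called, 3 lost their call and 61 changed sign, none of the last being called in the reported fit. Igf1 in both populations, and Osm and Inhba in tdT- dCAMs, kept their calls in all 21 alternatives that apply to them. The log2 fold change of Thbs1 lost its call with limma-voom, in tdT- dCAMs at 5.35 with quality weights and 5.08 with the replicate block and in tdT+ dCAMs at 5.19 with the block.

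The number of members called for LPS in tdT+ dCAMs was 2 as reported, 6 with only the libraries compared, 7 with voom quality weights, 4 with the voom replicate block, 5 with DESeq2 and 2 to 3 with a mouse left out. Between populations of CTL mice it was 0 as reported, 1 with the voom replicate block (Igf1) and 1 with DESeq2 (Thbs1). The block changed other calls too: Vegfa was called for LPS in tdT- dCAMs at 4.68, and Inhba, Osm and Vegfa in tdT+ dCAMs at 4.18, 1.397 and 5.96.

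Signs changed for Vegfa in tdT- dCAMs after LPS, at -0.036 with RLE factors, -0.037 with DESeq2, -0.0018 with filterByExpr and -0.027 after thinning. For Hbegf the values with voom quality weights, the voom block, limma-trend and limma-trend with the block were 1.27, 2.48, 1.96 and 1.96 for LPS in tdT- dCAMs, -0.21, -0.0090, -0.044 and -0.044 for LPS in tdT+ dCAMs, 1.34, 2.42, 1.88 and 1.88 between populations in CTL mice, -0.13, -0.072, -0.12 and -0.12 in LPS mice, and -1.47, -2.49, -2.0 and -2.0 for the difference. With mouse as a fixed replicate block the last 3 were 1.90, -0.12 and -2.02. Between populations of LPS mice, Pdgfb was 0.30 with quality weights and 0.34 with the voom block, and Gdf15 was 0.0568 with the voom block, 0.0575 with limma-trend, with and without the block, and 0.073 with the fixed block. The difference of LPS effects for Thbs1 was -0.29 with quality weights and -0.10 with the fixed block. In these fits the median difference over all genes was -0.58 and -0.64, against 0.027 as reported. The causes were not tested.

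With each mouse left out in turn, signs changed within these ranges. For LPS they were -0.46 to 4.51 for Vegfa and -0.83 to 0.37 for Hbegf in tdT- dCAMs, and -0.11 to 0.58 for Hbegf in tdT+ dCAMs. Between populations of CTL mice they were -5.32 to 1.41 for Vegfa, -0.79 to 0.55 for Hbegf, -0.42 to 0.055 for Tgfb1, -0.20 to 1.43 for Pdgfb, -2.36 to 0.25 for Thbs1 and -1.24 to 4.36 for Inhba. In LPS mice they were -0.041 to 0.42 for Hbegf, -0.26 to 0.11 for Tgfb1, -0.96 to 0.17 for Pdgfb and -0.37 to 0.46 for Gdf15. For the difference they were -2.11 to 4.63 for Vegfa, -0.27 to 1.03 for Hbegf, -0.19 to 0.28 for Tgfb1 and -0.74 to 1.89 for Thbs1. Leaving out mouse 174 gave an end of each range of Vegfa and Thbs1.

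Depth went with treatment, and after thinning to the shallowest library the 4 calls in tdT- and 2 in tdT+ dCAMs were kept. At 3 counts or fewer, as for Inhba in CTL mice, absence cannot be told from a level below detection.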
